A study of Homo sapiens with 12 samples.

Results

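Transcripts of 7 histone lysine demethylase genes were followed in ZR-75-1, an oestrogen receptor-positive human breast cancer cell line: *KDM5A*, *KDM5B*, *KDM5C*, *KDM1A*, *KDM1B*, *KDM6A* and *KDM6B*. They were chosen by symbol, and each matched 1 row of the deposited table of RNA-seq counts, 7 of its 60612 rows with a gene symbol. The cells had received a non-targeting guide (sgControl) or had a CRISPR–Cas9 knockout of *RB1*, the gene of the retinoblastoma protein Rb. For 5 days they received DMSO or 500 nM abemaciclib, which blocks CDK4 and CDK6, the kinases of Rb. Each of the 4 groups (sgControl with DMSO, sgControl with abemaciclib, *RB1* knockout with DMSO, *RB1* knockout with abemaciclib) had 3 libraries. The knockout line was derived from sorted single cells, and the number of clones behind these libraries is not given in the sources used here, so *RB1* genotype and clone cannot be told apart. The labels do not say what makes a replicate. The paper counts 3 biological replicates per condition for its RNA-seq, without naming these libraries. The p-values measure only the spread between these libraries.

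Histone demethylases remove methyl groups from lysines of histone tails. The KDM5 enzymes act on trimethylated and dimethylated histone H3 lysine 4 (H3K4), a mark of active promoters. KDM5A was found as a protein that binds Rb, and KDM5B is known for its high level in breast cancers. KDM1A (LSD1) and KDM1B (LSD2) use flavin to remove lower methylation states of H3K4, KDM1A mostly as the enzyme of the CoREST repressor complexes. KDM6A (UTX) and KDM6B (JMJD3) remove the repressive methylation of histone H3 lysine 27 (H3K27). The question asked of the counts was whether the transcripts of these enzymes changed with CDK4/6 inhibition, and whether the change depended on *RB1*.

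In GENCODE release 44 on GRCh38, *KDM5A* lies at chr12:280057-389320 (minus strand), *KDM5B* at chr1:202724495-202808487 (minus strand) and *KDM5C* at chrX:53176283-53225422 (minus strand). *KDM1A* lies at chr1:23019443-23083689, *KDM1B* at chr6:18155329-18223854, *KDM6A* at chrX:44873188-45112779 and *KDM6B* at chr17:7834217-7854796, all on the plus strand. The only exonic overlap with another gene was 48 bases shared by *KDM5A* and *CCDC77* on opposite strands. All 7 genes had a RefSeq promoter entry, and *KDM6B* had entries for 2 starts. The 250 bases before the start are printed below for *KDM5A*, the demethylase that binds Rb, for *KDM5B*, which changed most, and for *KDM1B*, where capitals mark the letters TTTCCCGC, searched as an E2F motif. E2F factors are the partners through which Rb represses cell cycle genes. The RefSeq build is GRCh38.p14, and the windows are chr12:389321-389570 (minus strand), chr1:202808422-202808671 (minus strand) and chr6:18155172-18155421 (plus strand).
KDM5A: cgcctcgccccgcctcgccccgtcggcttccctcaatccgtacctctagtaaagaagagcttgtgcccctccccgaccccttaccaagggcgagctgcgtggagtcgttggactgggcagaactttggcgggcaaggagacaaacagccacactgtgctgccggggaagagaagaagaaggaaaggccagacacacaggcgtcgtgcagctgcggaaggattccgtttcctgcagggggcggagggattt
KDM5B: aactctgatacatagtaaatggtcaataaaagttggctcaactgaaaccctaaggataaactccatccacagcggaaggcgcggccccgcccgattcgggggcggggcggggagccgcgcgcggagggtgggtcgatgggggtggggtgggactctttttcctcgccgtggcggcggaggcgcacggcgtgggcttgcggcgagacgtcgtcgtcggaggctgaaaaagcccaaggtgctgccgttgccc
KDM1B: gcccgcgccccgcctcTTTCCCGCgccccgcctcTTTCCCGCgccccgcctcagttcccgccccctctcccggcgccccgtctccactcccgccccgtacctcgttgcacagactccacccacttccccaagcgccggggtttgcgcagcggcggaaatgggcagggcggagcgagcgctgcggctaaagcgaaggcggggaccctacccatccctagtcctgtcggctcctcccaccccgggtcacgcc

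The letters searched on both strands were TTTCGCGC, TTTGGCGC, TTTCCCGC and TTTGCCGC for E2F, TTTGAA for the cell cycle homology region (CHR), AGGTCA for a single arm of an oestrogen response element and, for the palindromic element, GGTCA followed after 3 bases by TGACC. In the same window of 35116 RefSeq promoters these were present in 2.79%, 13.3%, 12.1% and 0.0399%, respectively. Among the 8 windows of the 7 genes, the E2F letters stood only in *KDM1B*, at 234 to 227 and at 216 to 209 bases before the start. AGGTCA stood only in *KDM6A*, at 99 to 94 bases before the start, and neither TTTGAA nor the palindrome stood in any of them. The windows of *KDM1B* (73.6% G and C, 30 CpG) and *KDM6B* at its upstream start (70.4%, 21 CpG) were the richest in G and C. That of *KDM5A* had 62.0% and 18 CpG, and that of *KDM5B* had 64.0% and 27 CpG. A match of letters is not a measured binding site.

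The libraries held 39907318 to 81636393 counts. *RB1* had 29 to 63 raw counts in the knockout libraries and at least 2090 in the sgControl libraries, and its mean normalized count (count divided by the library's size factor) was 4577 in sgControl with DMSO and 46.8 in the knockout with DMSO. With abemaciclib its mean was 2372 in sgControl cells, a fall (log2 -0.95, DESeq2 adjusted p = 3.56e-29), and 54.0 in the knockout. All 10 luminal epithelial markers were detected, with a summed level of 198554 to 275043 normalized counts per kilobase. Summed basal markers stood at 25.1 to 28.2 in sgControl with abemaciclib and at 89.6 to 164.5 in the other groups. That range was carried by *ACTA2*, and the defining basal genes *KRT5*, *KRT14* and *TP63* were near 0. Fibroblast markers summed to 211 to 339, nearly all from *COL1A1*, leukocyte markers to at most 14.3 and endothelial markers to at most 9.99. Mitochondrial transcripts took 2.82 to 3.99% of counts in sgControl with DMSO, 7.22 to 8.53% in sgControl with abemaciclib, 3.78 to 4.13% in the knockout with DMSO and 5.44 to 7.39% in the knockout with abemaciclib, and their part in the results was not tested. Replicate 1 of sgControl with DMSO stood apart. Its mean correlation with its group was 0.991, against 0.993 to 0.998 for the other libraries, and it was the lowest of its group for 6 of the 7 genes. In each of the other groups, too, a single library was the lowest for 5 or 6 of the 7. Values without replicate 1 of sgControl with DMSO are given where they matter. These are bulk libraries, in which fewer cells of a kind and less RNA per cell cannot be told apart.

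Abemaciclib changed 4 of the 7 demethylase transcripts in sgControl cells: *KDM5B* and *KDM6B* rose, and *KDM1A* and *KDM1B* fell. The background was high, since 49.4% of all 22885 genes tested passed the same threshold (DESeq2, adjusted p under 0.05), 24.8% higher and 24.6% lower. By total-count scaling the calls over all genes split into 4529 higher and 6774 lower, against 5671 and 5627 here. In knockout cells 4 of the 7 also changed, *KDM5B* and *KDM6B* upwards and *KDM5A* and *KDM5C* downwards, against 30.1% of 18506 genes (15% higher, 15.1% lower). The response differed by genotype for 3 of the 7 (*KDM5B*, *KDM5C* and *KDM1A*), against 41.2% of 21008 genes (21% higher and 20.2% lower, that is 4415 and 4250 genes, or 5466 and 3099 by total-count scaling). The knockout differed from sgControl for 2 of the 7 in DMSO (*KDM5B* and *KDM6B*), both higher, against 31.4% of 19757 genes (16.2% higher, 15.2% lower), and for 3 of the 7 in abemaciclib (*KDM5B*, *KDM5C* and *KDM1A*), against 53.9% of 22260 genes (27.5% higher, 26.4% lower). The median log2 response of the 7 genes was 0.003 in sgControl cells and -0.19 in knockout cells, where the median over all genes tested was 0.02 in both.

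**Figure D1:**
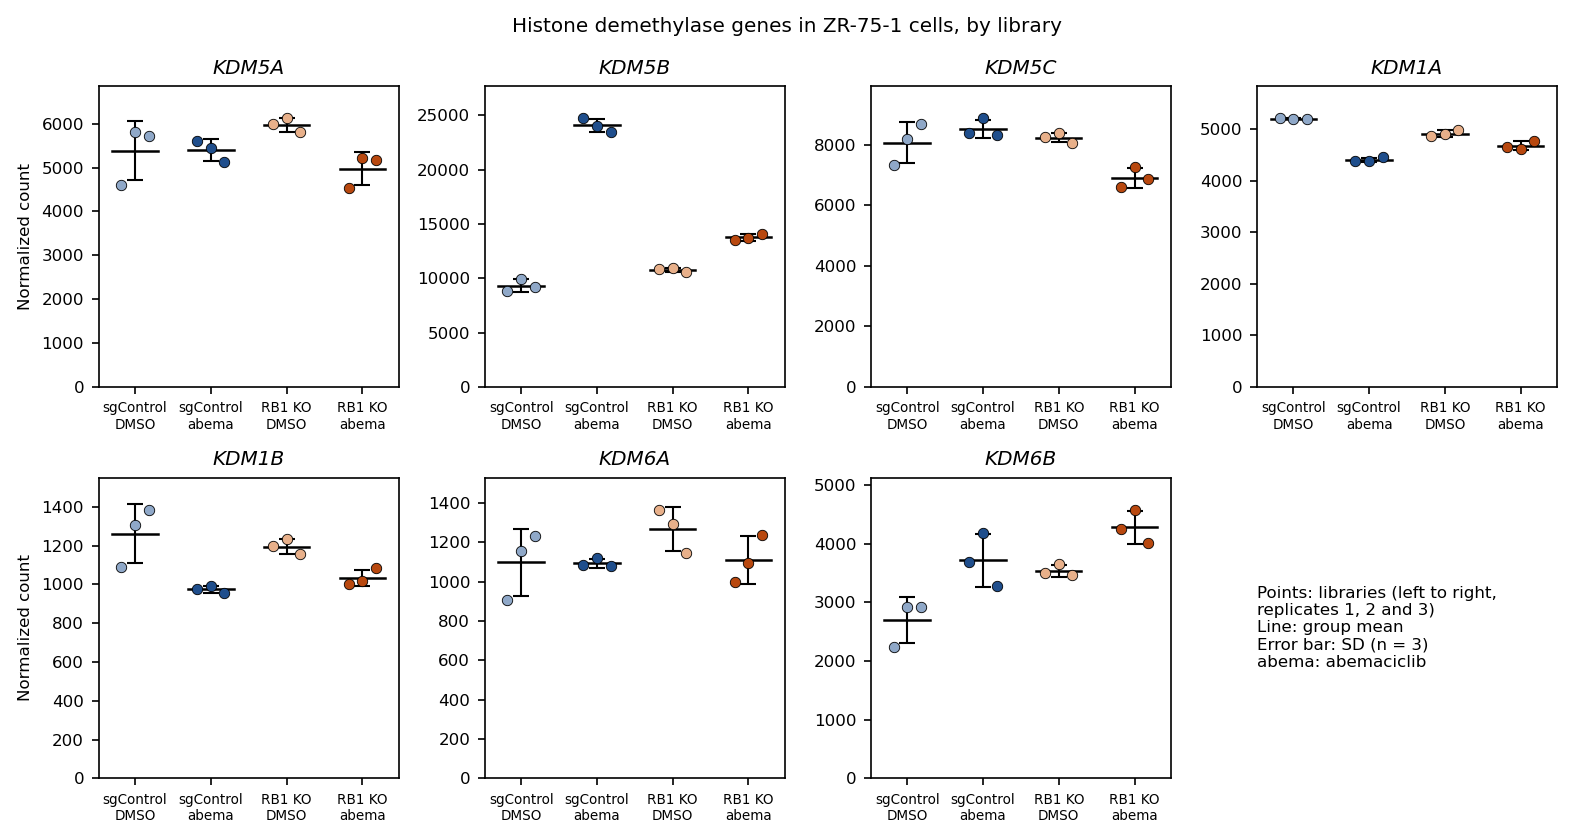
Normalized counts (linear axes from 0) of the 7 demethylase genes in the 12 libraries, with the mean and SD of each group of 3. *KDM5B* rose from 8816 to 9936 with DMSO to 23482 to 24732 with abemaciclib in sgControl cells and reached 13489 to 14087 in knockout cells, while the other genes moved over narrower ranges.

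*KDM5B* gave the largest difference of the 7 in every comparison but that of genotype in DMSO, where *KDM6B* differed more. In sgControl cells with DMSO its normalized counts were 8816, 9936 and 9189.8, and with abemaciclib 24732, 24023 and 23482. In knockout cells they were 10837, 10939 and 10552 with DMSO and 13489, 13734 and 14087 with abemaciclib. No 2 of the 4 groups overlapped, and the sgControl libraries with abemaciclib were far above all others. The response was 2.59-fold in sgControl cells (log2 1.37, SE 0.05, adjusted p = 1.04e-153) and 1.28-fold in knockout cells (log2 0.35, SE 0.05, adjusted p = 2.69e-10). The difference between these responses, the interaction, was -1.02 on the log2 scale (95% interval -1.16 to -0.87, adjusted p = 3.06e-42). Without drug the knockout was slightly higher (log2 0.21, SE 0.05, adjusted p = 3.51e-04), and with drug it was lower (log2 -0.81, SE 0.05, adjusted p = 5.35e-54). *KDM5B* kept both responses, the interaction and the difference with drug past the threshold under the alternatives run for them, including without replicate 1 of sgControl with DMSO (log2 1.33 in sgControl cells). The difference in DMSO was lost when the 6 DMSO libraries were fitted alone with a replicate block (0.21, adjusted p = 0.110, the highest of a range from 4.53e-06).

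*KDM5A* was called only in knockout cells, where it fell with drug. Its normalized counts in sgControl cells were 4613, 5819 and 5723 with DMSO and 5610.3, 5458 and 5123 with abemaciclib. In knockout cells they were 5998, 6126 and 5801 with DMSO and 4543, 5215 and 5167 with abemaciclib. The sgControl groups overlapped, the low library being replicate 1 with DMSO, whereas in knockout cells every library with drug was below every library without it. The log2 response in sgControl cells was 0.003 (95% interval -0.17 to 0.17, adjusted p = 0.983), and it turned to -0.14 with total-count scaling. In knockout cells its log2 response was -0.26 (SE 0.09, adjusted p = 0.0120). That call was lost with total-count scaling (adjusted p = 0.0605), without replicate 2 of the knockout with DMSO (0.0631) and without replicate 1 of the knockout with abemaciclib (0.0947), within a range of 3.10e-06 to 0.0947 over all alternatives. The interaction of -0.27 did not pass (95% interval -0.51 to -0.02, adjusted p = 0.0724), but it passed in 4 of 17 alternatives, with adjusted p from 0.0302 to 0.564, and it was -0.16 without replicate 1 of sgControl with DMSO. Neither genotype difference passed. It was 0.15 in DMSO (adjusted p = 0.199, and 0.048 without that replicate) and -0.12 in abemaciclib (adjusted p = 0.267).

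*KDM5C*, the X-linked member of the family, fell in knockout cells with drug. Its normalized counts with DMSO and then abemaciclib were 7323, 8188 and 8671 and then 8386, 8869 and 8327 in sgControl cells. The knockout libraries gave 8245, 8373 and 8061 with DMSO and 6583, 7256 and 6859 with abemaciclib. The last group was below all 9 other libraries, and the sgControl groups overlapped each other. The response was 0.08 in sgControl cells (95% interval -0.05 to 0.21, adjusted p = 0.332, turning to -0.06 with total-count scaling) and -0.25 in knockout cells (SE 0.07, adjusted p = 9.73e-04). The interaction was -0.33 (95% interval -0.52 to -0.15, adjusted p = 0.00136), and the knockout was lower with drug by 0.31 (SE 0.07, adjusted p = 1.40e-05). Scaling to the total count ended these last 2 calls (interaction -0.19, adjusted p = 0.243, within 4.39e-05 to 0.243 over the alternatives, and genotype -0.19, adjusted p = 0.0732, within 4.04e-10 to 0.0732), while the fall in knockout cells passed under all alternatives. Total-count scaling moved the median gene by -0.13 in the sgControl response, 0.14 in the interaction and 0.11 between genotypes with drug.

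*KDM1A*, the flavin-dependent H3K4 demethylase, fell with abemaciclib in sgControl cells, by a small amount against very close replicates. Its normalized counts were 5207, 5194 and 5189.6 with DMSO and 4376, 4386 and 4449 with abemaciclib. In knockout cells they were 4854, 4893 and 4978 with DMSO and 4642, 4619 and 4770.02 with abemaciclib. No 2 of these groups overlapped, and the knockout with drug lay between sgControl with drug and the knockout without it. The log2 response of *KDM1A* was -0.24 in sgControl cells (SE 0.04, adjusted p = 1.53e-09), whereas the difference of -0.07 in knockout cells did not pass (adjusted p = 0.174). The interaction of 0.17 passed with DESeq2 (SE 0.05, adjusted p = 0.00581) but not with edgeR (0.19, adjusted p = 0.162, within 6.98e-04 to 0.162 over the alternatives). Between genotypes in DMSO the difference of -0.08 did not pass (adjusted p = 0.0890), though it did in 1 of 19 alternatives (0.0447). With drug the knockout was higher by 0.09 (SE 0.04, adjusted p = 0.0460), a call that was lost in 15 of 19 alternatives, including the replicate block (adjusted p = 0.109) and edgeR (0.349), the latter the highest of a range from 0.00135.

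*KDM1B*, the other flavin-dependent enzyme and the one with the E2F letters, fell with drug in sgControl cells. Normalized counts were 1092, 1306 and 1385 with DMSO and 979, 992 and 955 with abemaciclib in these cells. The knockout libraries gave 1198, 1232 and 1155 with DMSO and 1004.5, 1018 and 1082 with abemaciclib. The drug groups lay below the DMSO groups of their genotype without overlap. *KDM1B* fell by 0.37 in sgControl cells (SE 0.09, adjusted p = 5.27e-05), and by 0.47 without replicate 1 of sgControl with DMSO, the lowest library of that group. The difference of -0.21 in knockout cells did not pass (95% interval -0.38 to -0.03, adjusted p = 0.0607), though it did in 4 of 19 alternatives, edgeR (0.0486) among them, over a range of 0.00692 to 0.196. The interaction of 0.17 did not pass (95% interval -0.08 to 0.41, adjusted p = 0.301) except without replicate 1 of sgControl with DMSO (0.26, adjusted p = 0.0169, the lowest of a range up to 0.576). Neither genotype difference passed (log2 -0.08 in DMSO and 0.09 in abemaciclib, adjusted p = 0.547 and 0.432). Without the same library the difference in DMSO was -0.17 and passed (adjusted p = 0.0361, the lowest of a range up to 0.966).

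*KDM6A*, the X-linked H3K27 demethylase that also sits in the KMT2C and KMT2D methyltransferase complexes, passed in none of the 5 comparisons. Its normalized counts were 907, 1156 and 1229.7 with DMSO and 1084, 1120.3 and 1076 with abemaciclib in sgControl cells. Knockout cells had 1365, 1290.2 and 1144 with DMSO and 998, 1095 and 1236 with abemaciclib. All groups compared overlapped. The log2 response was -0.007 in sgControl cells (95% interval -0.23 to 0.22, adjusted p = 0.968) and -0.19 in knockout cells (95% interval -0.41 to 0.04, adjusted p = 0.221). The interaction was -0.18 (95% interval -0.50 to 0.14, adjusted p = 0.404), and each of these intervals holds changes in both directions. In DMSO the knockout stood 0.20 above sgControl (adjusted p = 0.176), which passed without replicate 3 of sgControl with DMSO (0.29, adjusted p = 0.0373, the lowest of a range up to 0.527).

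*KDM6B*, the inducible H3K27 demethylase, rose with abemaciclib in sgControl cells and was higher in the knockout than in sgControl cells with DMSO. Its normalized counts in sgControl cells were 2244, 2928 and 2915 with DMSO and 3693, 4174 and 3274 with abemaciclib. Those in knockout cells were 3492, 3645 and 3458 with DMSO and 4246, 4578 and 4007 with abemaciclib. The drug groups were above the DMSO groups of their genotype without overlap, and the 2 genotypes overlapped with drug but not with DMSO. *KDM6B* rose by 0.46 in sgControl cells (SE 0.11, adjusted p = 5.07e-05) and was higher in the knockout with DMSO by 0.39 (SE 0.11, adjusted p = 0.00157). Without replicate 1 of sgControl with DMSO these differences were 0.34 (adjusted p = 7.96e-05) and 0.27 (adjusted p = 0.00389). The rise of 0.28 in knockout cells (SE 0.11, adjusted p = 0.0353) was lost in 7 of 19 alternatives, with adjusted p from 3.80e-06 to 0.173. The interaction of -0.19 did not pass (95% interval -0.48 to 0.11, adjusted p = 0.354), and it was -0.068 without replicate 1 of sgControl with DMSO. With drug the difference of 0.20 between genotypes did not pass (adjusted p = 0.0967), but it passed with the replicate block (0.21, adjusted p = 0.0482), and in 7 of 19 alternatives in all, with adjusted p from 2.20e-04 to 0.411.

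**Figure D2:**
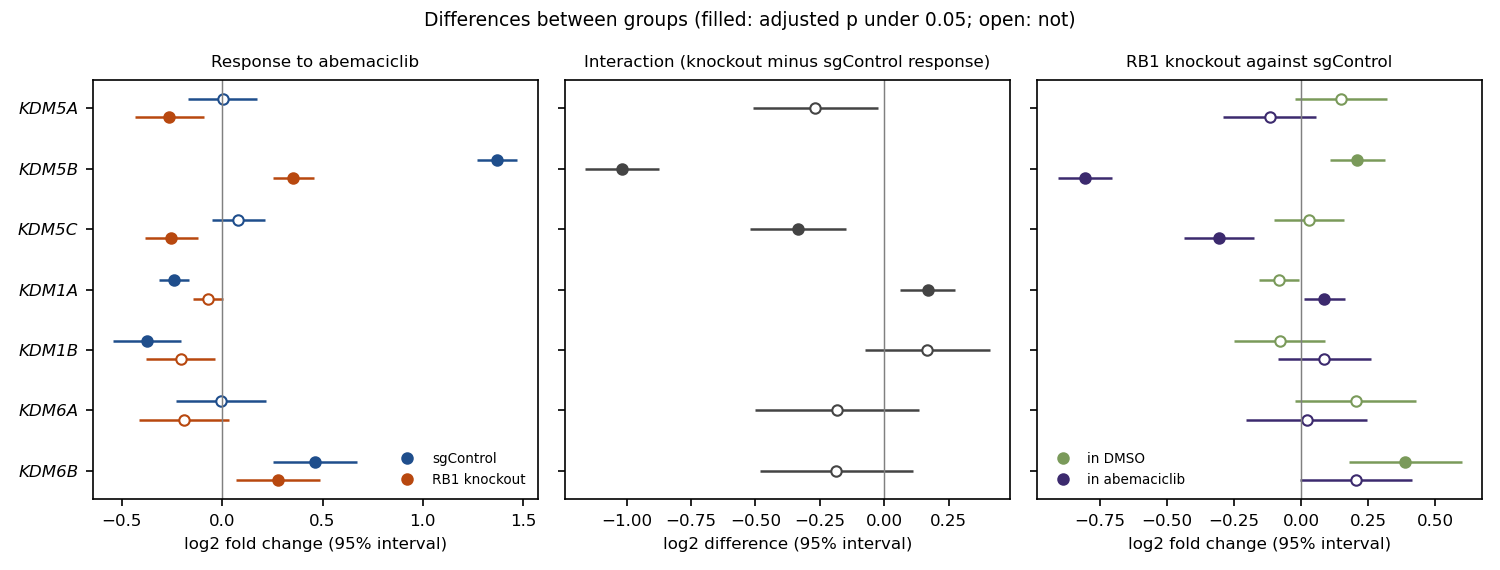
Log2 differences with 95% intervals for each gene: response to abemaciclib by genotype (left), the interaction (middle) and *RB1* knockout against sgControl (right), with filled points for adjusted p under 0.05. *KDM5B* stands apart at 1.37 in sgControl cells, -1.02 in the interaction and -0.81 between genotypes with drug, and the other called differences lie between -0.37 and 0.46.

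The surroundings of each gene were described by the median of the genes within 5 Mb on either side with a mean of at least 100 normalized counts. For *RB1* knockout against sgControl in DMSO this median was -0.07 on the log2 scale for the 72 neighbours of *KDM5B*, 0.01 for the 104 of *KDM6B* and 0.10 for the 56 of *KDM5C*. For the 24 neighbours of *KDM5A*, the 101 of *KDM1A*, the 24 of *KDM1B* and the 54 of *KDM6A* it was -0.007, -0.07, -0.02 and 0.08. With abemaciclib the medians were -0.10 around *KDM5B*, 0.09 around *KDM5C* and -0.23 around *KDM1A*, where the genes themselves differed by -0.81, -0.31 and 0.09. Around the genes not called there they were 0.32 (*KDM5A*), 0.09 (*KDM1B*), 0.05 (*KDM6A*) and -0.07 (*KDM6B*). Those genes themselves differed by -0.12, 0.09, 0.02 and 0.20. The neighbours of *KDM5B* had a median response of 0.22 in sgControl cells, against 1.37 for the gene. Copy number was not measured here.

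With the whole-transcript kit named in the labels, levels can be compared between genes only per length. The general methods name a 3′ mRNA kit, with which the levels and shares per kilobase given here would not hold. Per kilobase of the union of exons, the means in sgControl with DMSO were 654 ± 55.4 normalized counts for *KDM5C*, 448 ± 55.7 for *KDM5A*, 374 ± 22.9 for *KDM5B*, 365 ± 52.9 for *KDM6B*, 284 ± 0.51 for *KDM1A*, 224 ± 27 for *KDM1B* and 39.6 ± 6.10 for *KDM6A* (SD, n = 3). *KDM5B* and *KDM6B* were neighbours in this order whose means differed by less than their spread. Per kilobase of the longest transcript *KDM5C* stayed highest (1322) and *KDM6A* lowest (90.6), while *KDM5B* (982) and *KDM1A* (898) moved above *KDM5A* (503), so the middle of the order depended on the length used. With abemaciclib *KDM5B* became the highest of the 7 in sgControl cells on both scales (967 ± 25.2 and 2539 per kilobase, against 692 ± 24.1 and 1399 for *KDM5C*).

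The make-up of the KDM5 transcripts differed between the groups. Of the summed *KDM5A*, *KDM5B* and *KDM5C* level per kilobase of exon union, *KDM5B* took 25.4% ± 1.4 in sgControl with DMSO and 45.9% ± 0.7 with abemaciclib, and 27.1% ± 0.1 and 36.3% ± 1.1 in the knockout (SD, n = 3). *KDM5C* went from 44.3% to 32.8% and *KDM5A* from 30.3% to 21.3% in sgControl cells. Neither of these 2 genes was called in sgControl cells, so a lower share here is not by itself a lower level. The summed level was 1476 ± 124.7 with DMSO and 2108 ± 54.6 with abemaciclib in sgControl cells, and 1597 ± 34.3 and 1526 ± 64.0 in knockout cells. With the longest transcript as length the shares of *KDM5B* were 35.03% and 57.2% in sgControl cells and 37.3% and 47.6% in knockout cells, the same direction.

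**Figure D3:**
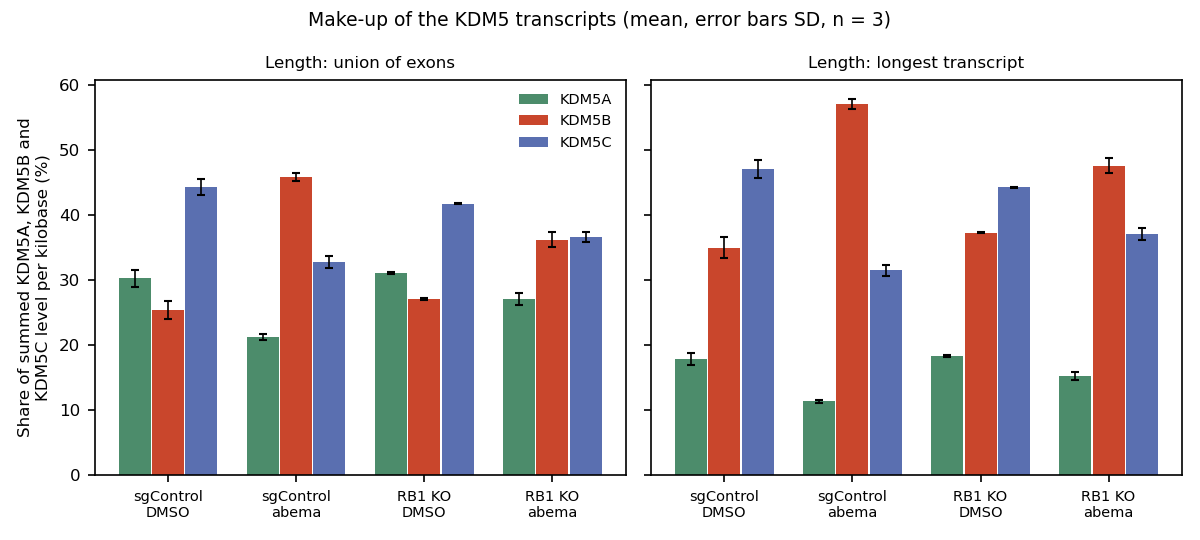
Shares (%) of *KDM5A*, *KDM5B* and *KDM5C* in their summed level per kilobase in the 4 groups, with the union of exons (left) or the longest transcript (right) as length (bars, mean of 3 libraries, error bars SD). The *KDM5B* share rises with abemaciclib in both genotypes, to 45.9% in sgControl and 36.3% in knockout cells on the left scale.

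Likeness of pattern was described by Pearson's r of log2 normalized counts over the 12 libraries, which fall into 4 groups and share their size factors, among 11885 genes with a mean of at least 100. The genes most like *KDM5B* were *LDB1*, *ZNF425* and *LRRN2* (all r = 0.994), and those most like *KDM1A* were *HNRNPDL* (0.990), *TPM4* (0.990) and *PLS3* (0.987). For *KDM5C* they were *KLHL18* (0.985), *TBC1D16* (0.982) and *FAM120A* (0.981), and for *KDM1B* *FAM168B* (0.971), *ANAPC1* (0.964) and *CDC73* (0.959). *KDM6B* was closest to *FAM193A* (0.968), *NOTCH3* (0.966) and *PRDM2* (0.966). *KDM5A* was closest to *RALGAPA1* (0.946), *KIAA1549* (0.924) and *ABHD2* (0.923), and *KDM6A* to *INPP4A* (0.894), *MYO9B* (0.886) and *MAN1A2* (0.873). Among the members themselves, *KDM5B* ran opposite to *KDM1A* (r = -0.948) and to *KDM1B* (-0.793). Pairs that ran together were *KDM1A* and *KDM1B* (0.846), *KDM5A* and *KDM6A* (0.823) and *KDM5A* and *KDM5C* (0.730). *KDM6A* passed in no comparison, and r also takes in the spread within groups. Replicate 1 of sgControl with DMSO was the lowest of its group for both *KDM5A* and *KDM6A*.

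A further list of 15 genes held other histone demethylases and the related oxygenases *JMJD6*, *RIOX1* and *RIOX2*. Of these 15, 3 rose and 5 fell in sgControl cells, where 24.8% of all genes tested were higher and 24.6% lower. The median log2 response of the 15 was -0.06 against 0.02 over all genes. With single libraries left out 2 to 4 rose, and from 3 (without replicate 3 of sgControl with abemaciclib) to 7 fell (without replicate 1 of sgControl with DMSO). In knockout cells 2 rose and 3 fell (all genes: 15% and 15.1%), and 2 of the 15 had a positive and 3 a negative interaction (all genes: 21% and 20.2%), or 4 and 2 with total-count scaling. The extremes were *KDM4B* and *JMJD6*. *KDM4B*, an H3K9 demethylase known as an oestrogen receptor coactivator, went from 8198 ± 43.8 to 21286 ± 940.2 normalized counts in sgControl cells (SD, n = 3, log2 1.38, SE 0.05, adjusted p = 1.89e-154) and was 6037 ± 211.6 and 5657 ± 249.1 in knockout cells. Its interaction was -1.47 (SE 0.07, adjusted p = 2.20e-85), against -1.02 for *KDM5B*. *KDM4A*, of the same family, rose by 0.81 (adjusted p = 1.90e-42), and its interaction was -0.45 (adjusted p = 7.43e-07). *JMJD6*, a lysyl hydroxylase with the same JmjC domain, fell by 1.08 (adjusted p = 7.99e-97) with an interaction of 0.96, *KDM8* fell by 0.74 (adjusted p = 4.05e-09), and *KDM2B*, an H3K36 demethylase, had an interaction of 0.46 (adjusted p = 2.38e-04).

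Genes of the complexes that write these marks were counted in the same way. Of 17 H3K4 methyltransferases and subunits of their COMPASS complexes, 2 rose and 9 fell in sgControl cells (median -0.29, against 24.8% higher and 24.6% lower over all genes). The 9 that fell were all subunits without catalytic activity (*WDR5*, *RBBP5*, *ASH2L*, *DPY30*, *CXXC1*, *WDR82*, *PAXIP1*, *PAGR1* and *HCFC1*, listed here after their values were seen). Of the 6 methyltransferases in the list *KMT2B* rose in the main fit, and *KMT2A*, *KMT2C*, *KMT2D*, *SETD1A* and *SETD1B* did not pass. The number of the 17 that rose in sgControl cells was not stable. It was 1 with total-count scaling, with the 6 sgControl libraries fitted alone and without replicate 2 of sgControl with abemaciclib, and 3 with edgeR. Of the 2 rises in the main fit, that of *KMT2B* was the smaller. In knockout cells none of the 17 rose and 4 fell (median -0.10, all genes 15% and 15.1%), and 6 had a positive and 1 a negative interaction (all genes 21% and 20.2%). Fitted alone, the 6 knockout libraries gave 3 higher and 8 lower with drug, and edgeR on all libraries gave 1 and 5. Among single libraries left out, the first replicate of sgControl with DMSO moved the counts most. When it was left out, 3 of the 17 rose and 8 fell with drug in the knockout, and 11 had a positive interaction. With any other library left out none rose, 2 to 5 fell and 4 to 6 had a positive interaction, which 9 had with total-count scaling. *PAXIP1* (log2 -1.02, adjusted p = 3.61e-39) and *CXXC1* (-0.82, adjusted p = 1.63e-49), subunits of the KMT2C and KMT2D complexes and of the SETD1 complexes, respectively, fell most, with interactions of 1.18 and 0.60. *MEN1*, the menin subunit of the KMT2A and KMT2B complexes, rose by 0.62 (adjusted p = 1.18e-12) with an interaction of -0.72, and *KMT2B* rose by 0.30 (adjusted p = 0.00697). Of the 4 genes of the H3K27 methyltransferase core, 3 fell and 1 rose in sgControl cells (median -0.81), and in knockout cells 1 fell. *EZH2*, the catalytic subunit of proliferating cells, went from 3022 ± 101.2 to 382 ± 11.9 normalized counts in sgControl cells and stood at 2922 ± 173.8 and 2759 ± 119.5 in the knockout (SD, n = 3). Its log2 response was -2.99 (SE 0.07), with an adjusted p too small to be represented, and its interaction 2.90 (adjusted p = 9.67e-192). *EED* fell by 1.00 (adjusted p = 4.76e-34), and *EZH1*, the paralogue of resting cells, rose by 0.43 (adjusted p = 4.28e-04), a call that total-count scaling ended.

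Demethylases act within larger complexes, and the genes of these were counted too. Of 13 genes of the KDM5-linked SIN3, HDAC and E2F6 complexes, 2 rose and 8 fell in sgControl cells (median -0.22), where 24.8% of all genes were higher and 24.6% lower. A positive interaction was found for 8 and a negative for 3 (median 0.49, against 0.03 over all genes, of which 21% and 20.2% were called), or for 9 and 0 with total-count scaling. *PCGF6* (log2 -1.18, adjusted p = 6.40e-33), a Polycomb subunit, and *MORF4L1* (-0.996, adjusted p = 9.03e-60), a chromodomain protein, fell most. *PHF12* (0.29) and *SIN3B* (0.26) rose by little, and with total-count scaling none of the 13 rose. Of 18 genes of the KDM1-linked CoREST and NuRD complexes, 8 rose and 5 fell, against the same shares of all genes (median 0.10, turning to -0.03 with total-count scaling, where 5 rose and 6 fell). *ZNF217* (0.73, adjusted p = 1.57e-10), an oncogene amplified in breast cancers, and *PHF21A* (0.63, adjusted p = 9.22e-11), a reader of unmethylated H3K4, rose most. *RCOR2*, a CoREST scaffold, fell by 1.08 (adjusted p = 2.99e-06) at a mean of 95.1 ± 13.0 normalized counts with DMSO, and *HDAC2*, a deacetylase counted in both lists, fell by 0.55 (adjusted p = 1.12e-26) with an interaction of 0.50. *HDAC1*, named because it too was counted in both lists, fell by 0.54 (adjusted p = 8.01e-37) with an interaction of 0.49. The counts of the 2 lists therefore share these genes. In knockout cells 2 rose and 3 fell among the KDM5 partners, and 4 rose and 2 fell among the KDM1 partners (all genes: 15% and 15.1%). Of the KDM1 partners 4 had a positive and 4 a negative interaction, but 5 and 1 did with total-count scaling and 3 and 3 with edgeR. The negative count ran from 1 (without replicate 2 of sgControl with DMSO, replicate 2 of sgControl with abemaciclib or replicate 3 of the knockout with DMSO) to 5 (without replicate 1 of sgControl with DMSO).

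**Figure D4:**
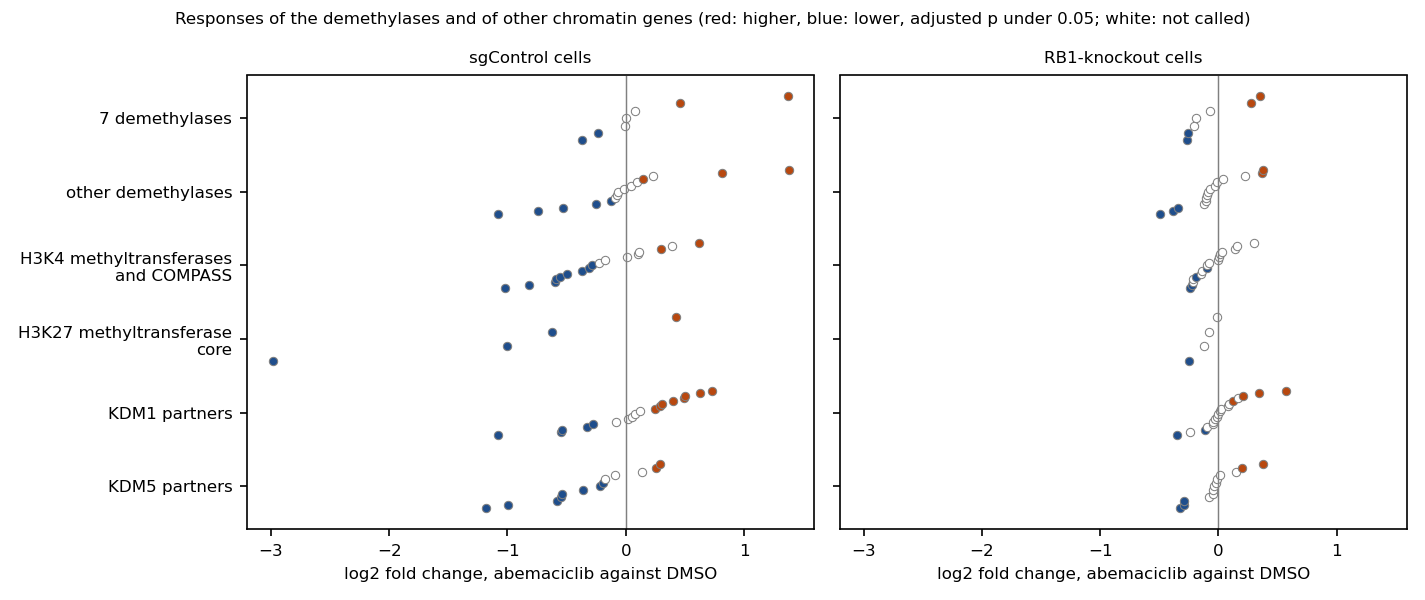
Log2 responses to abemaciclib of the 7 demethylases and of 5 lists of chromatin genes, 1 point a gene, in sgControl (left) and *RB1*-knockout cells (right), red for higher and blue for lower at adjusted p under 0.05. In sgControl cells the points run from -2.99 (*EZH2*) to 1.38 (*KDM4B*), and in knockout cells they cover a narrower range around 0.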

How the data were processed

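RNA-seq was measured in 12 libraries of ZR-75-1 cells, 3 in each of 4 groups taken from the sample titles. The values are raw counts per gene as the authors deposited them. Their pipeline used BBDuk for trimming, aligned reads to hg38 with STAR 2.7.5b and counted them with featureCounts 2.0.1 against a GENCODE annotation. The counts were deposited without normalization or pooling. Strand and multimapping settings are not given in the sources used here, so reads of overlapping genes on opposite strands may not have been told apart. The labels name a directional whole-transcript kit and the general methods a 3′ mRNA kit; with the latter, counts would not depend on transcript length and the levels per kilobase would not hold.

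Of 60656 rows, 44 named NA were left out and 28342 of the rest had no count. Totals of 39907318 to 81636393 per library set the precision. The members and gene lists were chosen with earlier results of these data known. DESeq2 1.42.0 (R 4.3.3), the study's tool, was fitted once to all 12 libraries with a group term, median-of-ratios size factors and no shrinkage. Wald tests (two-sided) covered 5 contrasts, and p-values were adjusted by Benjamini–Hochberg over all genes left by independent filtering (threshold 0.05). Intervals are 95% Wald intervals. Levels per kilobase use exon lengths of GENCODE release 44. Named genes were the 7 members, *RB1*, at most 2 genes per direction with the largest log2 fold change in each list (mean normalized count of at least 100) for the sgControl response and the interaction, and the 3 genes most correlated with each member. Promoters came from RefSeq. Proteins were not used here. The models were tested on simulated counts with known changes.

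Alternatives were the edgeR 4.0.16 quasi-likelihood test with TMM, total-count or TMM scaling, a filter of 10 counts in 3 libraries, a replicate block, the 6 libraries compared alone, each library left out, and the longest transcript as length. A replicate block on the 6 libraries of each comparison of 2 groups was added after seeing the data. What libraries of 1 replicate number share is not given. In abemaciclib, same-numbered libraries of the 2 genotypes deviated together from their group means (r = 0.15, 0.26 and 0.11), so the block is given beside that comparison where it changes a call. Elsewhere at least 1 pair stayed at or under 0.1. No 2 libraries were identical within sampling noise.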

Additional observations from a re-analysis of the deposited data

Results flagged for a closer look

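For 3 of the 7 demethylase genes the response to abemaciclib differed between *RB1*-knockout and sgControl cells by the DESeq2 interaction test. The difference (knockout minus sgControl, log2) was -1.02 for *KDM5B* (adjusted p = 3.06e-42), where all 3 libraries of each genotype rose over DMSO and sgControl cells rose more. It was -0.33 for *KDM5C* (adjusted p = 0.00136), where the fall was in knockout cells, and this was lost with total-count scaling. It was 0.17 for *KDM1A* (adjusted p = 0.00581), where the fall was in sgControl cells, and this was lost with edgeR. Over all genes 41.2% passed the same test. Genotype and clone cannot be told apart.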

How the results depend on the processing

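Of 651 values of single demethylase genes under alternatives, 587 kept direction and side of the threshold, 29 lost and 19 gained the threshold, and 16 changed sign, none of them a called value. The sign changes in the sgControl response were *KDM5A* with edgeR (-0.031), total-count scaling (-0.14), TMM scaling (-0.031), the 6 samples alone (-0.019, or -0.012 with a replicate block) and single libraries left out (-0.098 to 0.060), *KDM5C* with total-count scaling (-0.055), and *KDM6A* with single libraries left out (-0.13 to 0.082). Between genotypes, leaving out 1 library turned *KDM5C* in DMSO (-0.038 to 0.083, negative without replicate 1 of sgControl with DMSO) and *KDM6A* in abemaciclib (-0.063 to 0.093, negative without replicate 3 of the knockout).

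With total-count scaling 2 of the 7 genes were called in the knockout response, against 4. With single libraries left out the number called was 4 in the sgControl response, 2 to 5 in the knockout response (2 without replicate 2 of the knockout with DMSO or replicate 1 with abemaciclib), 3 to 4 for the interaction, 2 to 3 between genotypes in DMSO and 2 to 4 in abemaciclib. Over all genes the counts were 10318 to 11365, 4341 to 6692, 8044 to 9316, 4977 to 6628 and 10903 to 12452, respectively.

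With the replicate block on all 12 libraries 4, 4, 4, 2 and 3 of the 7 were called, in the same order of comparisons, and 11078, 5382, 8514, 6031 and 11754 of all genes. The gain in the interaction was *KDM5A* (-0.27, adjusted p = 0.0447 with the block). A block on the 6 libraries of each comparison alone, added after seeing the data, called 4, 4, 1 and 3 of the 7 (sgControl response, knockout response, genotype in DMSO and in abemaciclib) and 9505, 5355, 3370 and 11356 genes. The call lost in DMSO was *KDM5B* (adjusted p = 0.110). In the sgControl response, same-numbered libraries deviated together for replicates 1 and 2 (r = 0.25 and 0.22) but not 3 (r = -0.08). Differently numbered libraries there gave r from -0.45 to 0.43. For same-numbered libraries in the knockout response and between genotypes in DMSO, r was -0.25 to 0.08. The levels per kilobase moved with the length used for all 7 genes, and the order of the middle ones with it.

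Each of the 7 genes had at least 907 normalized counts in every library. The widest 95% interval among them was that of the *KDM6A* interaction (-0.50 to 0.14 with 3 libraries a group).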
